A study of Harpegnathos saltator with 37 samples.

Results

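The comparison is between 9 hunting workers collected at day 120 and 4 workers collected at day 20, 13 of the 37 central brain libraries of a study of the ant Harpegnathos saltator. The libraries were taken by their labels, which give the caste, the day and the role, and no measured value entered the choice. Day 120 and day 20 count from the time when sets of 25 young (callow) females aged 5 days were moved, with 3 males, to a nest that held neither a queen nor gamergates. In this species workers of such nests duel, and some become gamergates, which mate and lay eggs. After 100 days the ants were scored for hunting, the whole colony was taken at day 120, and gamergates were told apart by their mature oocytes. All ants were kept in the same kind of nest and fed live prey, and the labels name no mutant allele and no drug in any group. Also used below are 6 dominant gamergates of day 120, 5 gamergates of day 20 and 4 workers of day 10, raised by the same procedure.

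Hunting workers were older than the workers of day 20, they hunted, and they were sequenced in other runs. Per the internal references in the labels, 4 hunting workers (replicates 1 to 4) were in run 1 and 5 (replicates 5 to 9) in run 4, while all 4 workers of day 20 were in run 5. Age, hunting and sequencing run therefore cannot be told apart in any difference below. The day 20 label says worker and names no task. Whether ants of a group were taken from several nests is not stated, and the p-values therefore cover only variation among libraries. The spread behind them was pooled within the groups of all 37 libraries, which also hold 5 duelers of day 10 and 4 late pupae.

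Juvenile hormone is made in glands behind the insect brain and acts through a receptor that switches on Kr-h1, a zinc finger transcription factor, while ecdysone acts through the nuclear receptors EcR and USP and their target E75. In adult social insects these hormones are tied to reproduction and to the division of labour. In the honey bee, juvenile hormone is higher in foragers than in nurses. Insulin and TOR signalling and neuropeptides such as corazonin are other signals known to differ between castes or tasks in ants and bees.

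The tissue was the central brain, from which the gnathal ganglion, the optic lobes and most of the antennal lobes (about 95%) had been cut away. Values are FPKM as the authors deposited them, reads scaled to gene length and to a library total. Over the 37 libraries, the reads recovered from the FPKM values were 0.8134 to 1.2707 of that total. It was therefore not the plain sum of assigned reads. Depth was 11.07 M to 55.72 M reads in hunting workers and 12.72 M to 15.09 M reads in workers of day 20. Synaptic genes, the defining neuronal markers, summed to 1270.2 to 1560.1 FPKM in hunting workers and 1012 to 1649 in workers of day 20. Glial genes summed to 724 to 978 FPKM in hunting workers and 760.5 to 962 FPKM in workers of day 20. Hunting workers 2, 3 and 7 stood apart from the other 6. In these 3 libraries, as in all 4 workers of day 20, long genes read low relative to short ones, measured against the mean of all adult libraries. Slopes of the deviation from that mean (log2 FPKM per log2 of gene length) were -0.154 to -0.065 in hunting workers 2, 3 and 7. They were -0.138 to -0.023 in workers of day 20 and 0.044 to 0.125 in the other 6 hunting workers. Counts of calls are also given without hunting workers 2, 3 and 7.

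In limma, 980 of 9986 tested genes (9.81%) differed between hunting workers and workers of day 20 at an adjusted p under 0.05. Of these 525 (5.26%) were higher and 455 (4.56%) lower in hunting workers. Most differences were small, with a median size of 0.46 (log2 of FPKM + 0.5, a scale that shrinks the change of weakly expressed genes), and 82 passed 2-fold, 21 higher and 61 lower. Every hunting worker stood above every worker of day 20 for 241 genes (2.41%), and below for 260 (2.6%), together 501 genes (5.02%), of which 414 were among the calls. All 980 genes had the same sign with the hunting workers of run 1 alone and of run 4 alone, both against the same 4 workers of run 5. Of them 425 also passed with run 1 alone and 629 with run 4 alone. The count rested on single libraries, at 477, 516 and 501 without day 20 workers 1, 3 and 4 and at 1645 without hunting worker 3. Without hunting workers 2, 3 and 7 it was 2786, with 1477 higher and 1309 lower. All hunting workers left then have positive slopes on gene length and all workers of day 20 negative ones. Length trend and group cannot be told apart in that setting. With the length trend of each library removed, and no library left out, the count was 960, with 572 higher and 388 lower. Scaling to TPM gave 417 genes, of which 269 were higher and 148 lower, so 64.5% were higher against 53.6% in the FPKM values. TPM moved the median of all genes to 0.08, from which its differences are to be read. In bulk tissue, fewer cells of a type and less RNA per cell cannot be told apart.

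**Figure D1:**
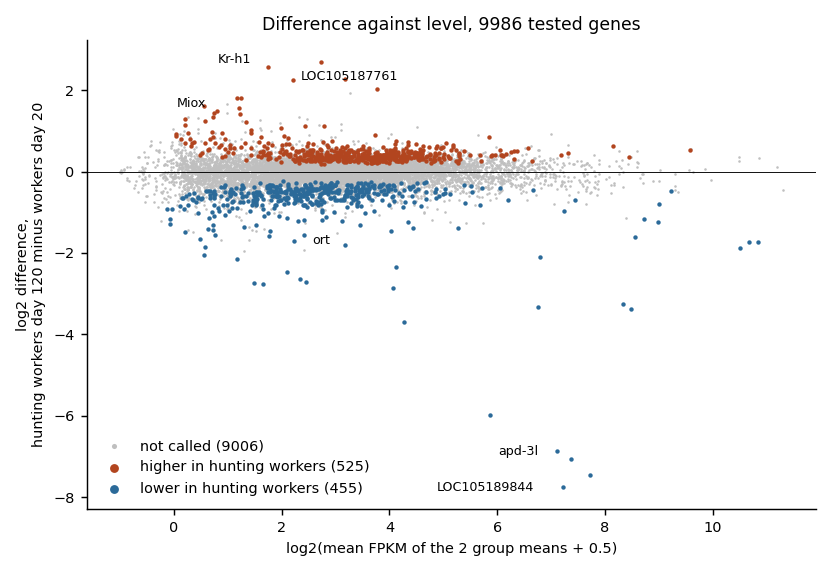
The log2 difference, hunting workers of day 120 minus workers of day 20, against log2 of the mean of both group means of FPKM plus 0.5, 1 point per tested gene. Red points are the 525 genes called higher and blue points the 455 called lower in hunting workers. The median size of the called differences is 0.46, and the largest differences are downward, with apd-3l at -6.87.

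Kr-h1 (LOC112589664), the juvenile hormone response gene, was higher in hunting workers. Its lowest, median and highest values were 1.22, 4.57 and 11.3 FPKM in the 9 hunting workers, against 0.637, 0.641, 0.0614 and 0.0693 FPKM in the 4 workers of day 20. All 9 hunting workers were above all workers of day 20, and the level varied about as widely among hunting workers of run 1 (1.22 to 11.3) as among those of run 4 (1.62 to 10.0). The means were 5.39 ± 3.71 FPKM in hunting workers and 0.352 ± 0.331 FPKM in workers of day 20 (mean ± SD, n = 9 and 4, as in all means below). The log2 difference was 2.58 (SE 0.44, adjusted p = 0.000368), and it was 2.75 with run 1 alone and 2.44 with run 4 alone. Without hunting workers 2, 3 and 7 it was 2.85 (adjusted p = 0.000192). Workers of day 10 had 0.0146 to 0.49 FPKM.

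E75 (LOC105187469), a nuclear receptor of the ecdysone response, was also higher. It ranged from 59.1 to 96.0 FPKM with a median of 76.2 in hunting workers, and stood at 64.2, 50.6, 56.5 and 43.4 FPKM in workers of day 20. The highest worker of day 20 was above 1 hunting worker, and 8 of 9 hunting workers were above all workers of day 20. The log2 difference was 0.54 (SE 0.15, adjusted p = 0.017). It did not pass without day 20 worker 4 (0.45, adjusted p = 0.0898) or with run 4 alone (0.48, 0.071).

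Kr-h1 and E75 were the 2 members of the list of juvenile hormone and ecdysone genes that passed, of 13 tested, 15.4% beside 9.81% of all genes. None was lower, and the median difference of the list was 0.20, beside 0.01 over all genes. The median was 0.40, 0.11 and 0.09 without day 20 worker 1, 3 or 4, and 0.09 with the length trend of each library removed. The other 11 members did not pass in the reported model. Ecr was called lower with the length trend removed (-0.53, adjusted p = 0.0394) and did not pass in 26 of 28 alternatives (lowest adjusted p = 0.0298). Hr38 and usp did not pass in 27 of 28 alternatives, with lowest adjusted p of 0.0051 and 0.026. jhamt (LOC105184533), which encodes the enzyme of the last step of juvenile hormone synthesis in many insects, spanned 0.0556 to 31.3 FPKM in hunting workers with a median of 0.491. In workers of day 20 it stood at 0.129, 3.48, 3.63 and 1.35 FPKM. The groups overlapped throughout, with 3 hunting workers above and 4 below all workers of day 20 (log2 difference 0.20, adjusted p = 0.917), and the sign of the difference turned under several settings. Of the partners that form the ecdysone receptor, Ecr averaged 6.65 ± 0.51 FPKM in hunting workers and 8.48 ± 1.66 FPKM in workers of day 20 (adjusted p = 0.148), and usp averaged 28.3 ± 5.06 FPKM in hunting workers and 25.5 ± 4.75 FPKM in workers of day 20 (adjusted p = 0.605). Hr38, a nuclear receptor that also serves as a marker of neuronal activity, averaged 6.24 ± 1.69 FPKM in hunting workers and 4.55 ± 1.67 FPKM in workers of day 20 (adjusted p = 0.297). Met, the juvenile hormone receptor, was not found under a symbol and was not analysed here.

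**Figure D2:**
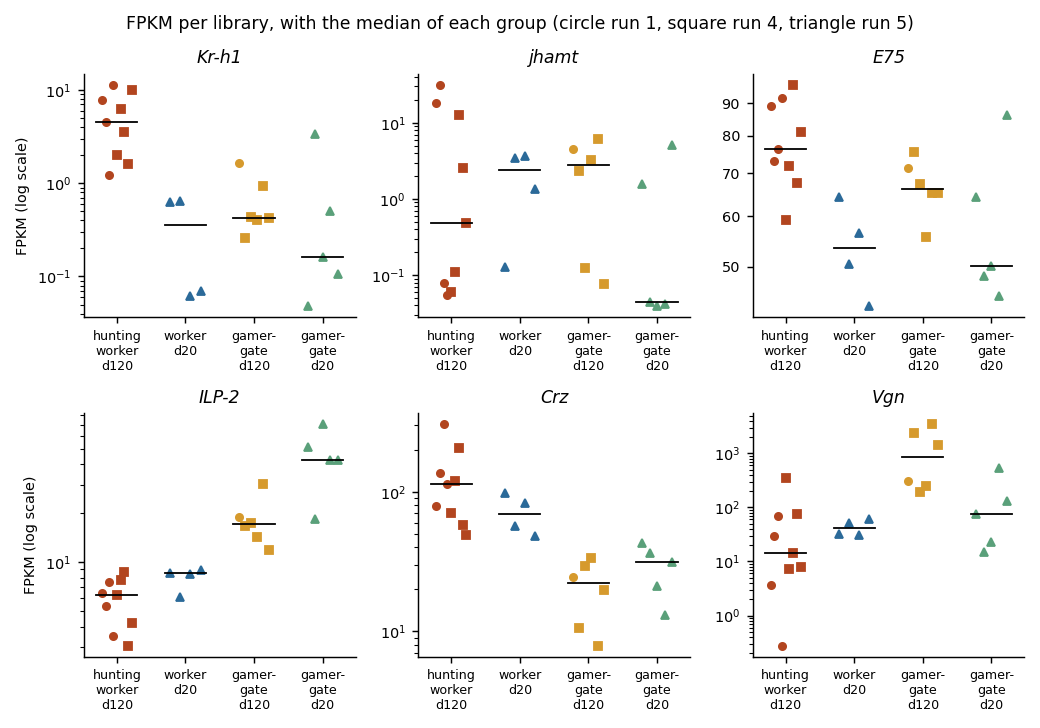
FPKM per library on log axes for 6 hormone-related genes in hunting workers of day 120, workers of day 20, gamergates of day 120 and gamergates of day 20, with circles for run 1, squares for run 4, triangles for run 5 and a line at each group median. For Kr-h1 all 9 hunting workers, from 1.22 to 11.3 FPKM, lie above all 4 workers of day 20, and jhamt and Vgn spread over the whole axis within groups.

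ILP-2 (LOC105188195) encodes an insulin-like peptide and averaged 5.85 ± 1.97 FPKM in hunting workers and 7.99 ± 1.31 FPKM in workers of day 20. The log2 difference of -0.47 did not pass (adjusted p = 0.244). Crz (LOC105191954), which encodes corazonin, ranged from 48.8 to 304 FPKM with a median of 113 in hunting workers. In workers of day 20 it stood at 98.8, 56.9, 82.5 and 47.8 FPKM, so that 5 of 9 hunting workers were above all of them (log2 difference 0.63, adjusted p = 0.355). Its 3 highest values, 304, 206 and 137 FPKM, were those of hunting workers 3, 7 and 2, and without these the difference was 0.17 (adjusted p = 0.788). The gene with the symbol Vgn (LOC105181726), which the reference does not expand, ran from 0.277 to 349 FPKM with a median of 14.1 in hunting workers, and from 30.4 to 61.1 FPKM in workers of day 20 (log2 difference -1.26, adjusted p = 0.456).

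Downstream of insulin, Tor (LOC105190144), the kinase of the TOR pathway, and Tsc1 (LOC105188459), part of the complex that inhibits it, were both higher in hunting workers. Tsc1 had 12.0 to 14.4 FPKM in hunting workers with a median of 13.1, against 9.19, 11.3, 10.7 and 11 FPKM in workers of day 20. All hunting workers were above all workers of day 20, and the log2 difference was 0.32 (SE 0.07, adjusted p = 0.00408). It did not pass in TPM (adjusted p = 0.0519) or with run 1 only (0.0537). Tor averaged 11 ± 2.15 FPKM in hunting workers and 7.4 ± 0.683 FPKM in workers of day 20, higher by 0.52 on the log2 scale (SE 0.15, adjusted p = 0.023), and did not pass without day 20 worker 1 (adjusted p = 0.0718), 3 (0.0811) or 4 (0.0633), in TPM (0.0686) or with run 1 only (0.158). Of the 16 tested members of the insulin and TOR list these 2 passed, 12.5% beside 9.81% of all genes. The other 14 did not, and the median of the list was 0.09. That median was 0.18, 0.14, 0.04 and 0.03 without day 20 workers 1 to 4 in turn. Without hunting workers 2, 3 and 7 it was 0.22, with 6 members higher and 1 lower, where 1477 of 9986 genes were higher and 1309 lower. With the length trend removed it was -0.02, with 2 members higher and none lower.

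The largest named difference upward after Kr-h1 was that of Miox (LOC105187328), myo-inositol oxygenase, which starts the breakdown of inositol. It had 0.511, 1.42 and 10.9 FPKM as lowest, median and highest of the hunting workers, and 0.202, 0.319, 0.162 and 0.149 FPKM in workers of day 20. The groups did not overlap, although the highest value, that of hunting worker 4, was far above the next, 2.09 FPKM. The log2 difference was 1.48 (SE 0.35, adjusted p = 0.00655), and it did not pass in a fit of these 2 groups alone (adjusted p = 0.0829). Miox belongs to a list of 10 tested lipid and amino acid genes, 3 of which were higher and none lower, 30.0% called beside 9.81% of all genes. The list median of 0.34 was the highest of the lists with at least 5 members tested. Hmgs (LOC105191116), an early enzyme of the mevalonate pathway, which in insects leads to juvenile hormone and other isoprenoids, averaged 9.19 ± 2.12 FPKM in hunting workers and 6.53 ± 0.604 FPKM in workers of day 20, with all hunting workers above (log2 difference 0.44, adjusted p = 0.0167). The last was bgm, a fatty acyl-CoA synthetase in Drosophila, at 1.36 ± 0.462 FPKM in hunting workers and 0.757 ± 0.288 FPKM in workers of day 20 (log2 difference 0.56, adjusted p = 0.0289). Hmgs did not pass without day 20 worker 1 (adjusted p = 0.0884). The call of bgm was lost without hunting worker 4 (0.0558) or 9 (0.0506) or day 20 worker 1 (0.105), 3 (0.142) or 4 (0.0648). The fatty acid synthesis genes FASN1 and ACC, named outside the rule after their values were seen, did not pass. FASN1 averaged 46.7 ± 13.4 FPKM in hunting workers and 34.2 ± 4.66 FPKM in workers of day 20 (log2 difference 0.40, adjusted p = 0.215). ACC averaged 10.8 ± 2.34 FPKM in hunting workers and 8.25 ± 1.42 FPKM in workers of day 20 (0.35, adjusted p = 0.125). Without hunting workers 2, 3 and 7 both passed, at 0.67 (adjusted p = 0.0116) and 0.56 (0.00345), and the list then had 6 members higher and none lower. Of all 9986 genes, 1477 were then higher and 1309 lower, in a setting where length trend and group coincide. With the length trend removed the list had 3 members higher and none lower. ACC also passed without hunting worker 3 alone (0.43, adjusted p = 0.0325).

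The gene black (LOC105184159), which in Drosophila encodes the decarboxylase that makes beta-alanine, averaged 5.05 ± 1.14 FPKM in hunting workers and 2.63 ± 0.526 FPKM in workers of day 20. Its lowest, median and highest values were 3.93, 4.7 and 7.36 FPKM in hunting workers, and the 4 workers of day 20 had 1.86, 2.87, 2.77 and 3.03 FPKM. The groups did not overlap, and the log2 difference was 0.82 (SE 0.16, adjusted p = 0.00138). Dab (LOC105189865), an adaptor protein of the Abl kinase pathway in Drosophila neurons, had 31.2, 40.4 and 49.3 FPKM as lowest, median and highest of the hunting workers. The workers of day 20 had 26.9, 29.1, 20.5 and 21.6 FPKM, all below, and the log2 difference was 0.71 (SE 0.12, adjusted p = 0.000368). Cap-D2 (LOC105182393), a subunit of condensin, stood at 6.58 to 9.36 FPKM in hunting workers with a median of 8.48, and at 5.14, 6.21, 5.08 and 4.54 FPKM in workers of day 20. Cap-D2 had the smallest standard error of the genes in this group, and the log2 difference was 0.60 (SE 0.10, adjusted p = 0.000204). Nuak1 (LOC105187562), a kinase related to AMP-activated kinase, averaged 17.3 ± 3.19 FPKM in hunting workers and 11.2 ± 1.31 FPKM in workers of day 20 (log2 difference 0.60, adjusted p = 0.00404). Each of these 4 genes passed when any 1 of the 13 libraries was left out.

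Other genes with groups that did not overlap were less stable. Myc (LOC105186502), a transcription factor that promotes growth, averaged 3.24 ± 0.716 FPKM in hunting workers and 1.75 ± 0.314 FPKM in workers of day 20 (log2 difference 0.72, adjusted p = 0.00904), and did not pass without day 20 worker 4 (0.62, adjusted p = 0.058) or with the length trend removed (0.58, 0.0583). FucTA (LOC105182309), the fucosyltransferase that marks neuronal glycoproteins in Drosophila, averaged 43.5 ± 6.43 FPKM in hunting workers and 28.4 ± 4.57 FPKM in workers of day 20 (log2 difference 0.60, adjusted p = 0.00779), and did not pass without the same library (0.52, adjusted p = 0.0542). Zw, the glucose-6-phosphate dehydrogenase of Drosophila, averaged 2.11 ± 0.488 FPKM in hunting workers and 1.22 ± 0.277 FPKM in workers of day 20 (log2 difference 0.59, adjusted p = 0.0314), and was lost without day 20 worker 1 (0.136), 2 (0.0674) or 4 (0.0595). Gp150, a membrane glycoprotein with leucine-rich repeats, averaged 24.4 ± 4.23 FPKM in hunting workers and 15.3 ± 2.75 FPKM in workers of day 20 (log2 difference 0.65, adjusted p = 0.0434). CDase, a ceramidase, averaged 10.4 ± 1.74 FPKM in hunting workers and 6.76 ± 1.51 FPKM in workers of day 20 (log2 difference 0.59, adjusted p = 0.0427). Both lay near the threshold. Gp150 was lost without any 1 day 20 worker and without hunting worker 1, 2, 4, 5, 6 or 9 (adjusted p up to 0.176), and CDase without any 1 day 20 worker and without hunting worker 1, 2, 4, 6 or 7 (up to 0.21). CDase did not pass without hunting workers 2, 3 and 7 together (0.47, adjusted p = 0.08).

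**Figure D3:**
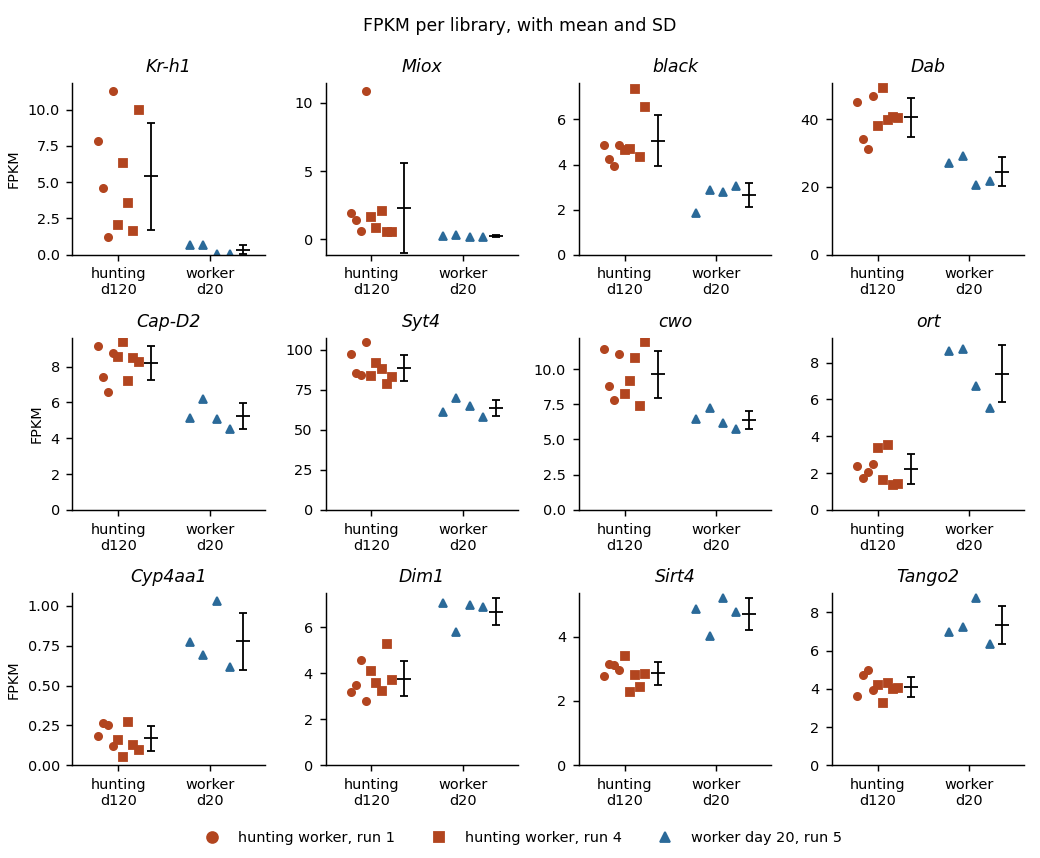
FPKM of 12 called genes in each hunting worker of day 120 and each worker of day 20, on linear axes, with symbols for the sequencing run and bars for mean and SD (n = 9 and 4). The groups do not overlap in any of the 12 panels, and for Miox 1 hunting worker at 10.9 FPKM sets most of the spread.

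The largest differences of all were downward and were those of apd-3l (LOC105189609), which by its symbol belongs to the apidermins, cuticle proteins of bees and ants, and of 3 genes with no name in the reference. apd-3l stood at 0 to 0.721 FPKM in the 9 hunting workers, with a median of 0.153. In the workers of day 20 it had 47.8, 98.1, 8.79 and 949 FPKM. The groups did not overlap, although the workers of day 20 differed widely among themselves. The log2 difference was -6.87 (SE 1.55, adjusted p = 0.00443), and it was -5.69 without day 20 worker 4 and -7.91 without day 20 worker 3. LOC105189844, LOC112588745 and LOC105189843, chosen after their values were seen, had log2 differences of -7.76 (SE 1.27, adjusted p = 0.000293), -7.47 (adjusted p = 0.000607) and -7.07 (adjusted p = 0.00174). LOC105189844 stood at 0 to 0.213 FPKM in hunting workers, against 88.1, 181, 14.4 and 912 FPKM in workers of day 20. LOC105189843 stood at 0 to 0.817 FPKM in hunting workers, against 56.1, 124, 6.5 and 1123 FPKM in workers of day 20. For LOC112588745 the values were 0.2 to 1.88 FPKM in hunting workers, against 299, 235, 21.2 and 1133 FPKM in workers of day 20. In all 4 genes day 20 worker 4 was the highest and day 20 worker 3 the lowest of its group. Without day 20 worker 4 the log2 differences of the 3 unnamed genes were -6.79, -6.64 and -5.84, and without day 20 worker 3 they were -8.77, -8.55 and -8.28.

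The level of apd-3l was 111 to 26806 FPKM in workers of day 10. Gamergates of day 120 had 0 to 0.483 FPKM, while gamergates of day 20 had 6.85 to 2953 FPKM. Of 11 tested members of the cuticle list 1 passed (9.09%, beside 9.81% of all genes), apd-3l itself. The summed level of the list, which apd-3l dominates, was 27.9 to 42.8 FPKM in hunting workers and 83.7, 134, 37.9 and 985 FPKM in workers of day 20. The gene snsl (LOC105187631), which in Drosophila serves the outer cuticle barrier, was lower in hunting workers at 0.278 ± 0.125 FPKM, against 2.11 ± 1.72 FPKM in workers of day 20 (log2 difference -1.57, adjusted p = 0.00931). Its highest value, 4.66 FPKM, was again that of day 20 worker 4, without which it did not pass (-1.17, adjusted p = 0.0807). Whether cuticle-forming cells near the dissected tissue took part in these differences was not tested.

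The gene ort (LOC105180831) encodes a histamine-gated chloride channel through which, in Drosophila, photoreceptors signal to optic lobe neurons. In the 9 hunting workers it had 1.37, 2.06 and 3.54 FPKM as lowest, median and highest value, against 8.65, 8.73, 6.72 and 5.54 FPKM in the workers of day 20. No hunting worker reached the lowest worker of day 20. The log2 difference was -1.57 (SE 0.40, adjusted p = 0.0111), with -1.58 for run 4 alone (adjusted p = 0.0378) and -1.55 for run 1 alone, which did not pass (0.0595). Workers of day 10 had 9.93 to 15.8 FPKM, above both later groups. ort was the only 1 of 26 tested ion channel genes that passed (3.85%, beside 9.81% of all genes), and the median of that list was 0.06. Photoreceptor and optic lobe genes varied with the library and did not pass, 0 of 14. Their sum ran from 149 to 745 FPKM in hunting workers and from 551 to 711 FPKM in workers of day 20, led by the arrestin gene Arr2, with 6 of 9 hunting workers below all workers of day 20. The part of remaining retina or optic lobe tissue in the difference of ort was not tested. Hdc, the enzyme that makes histamine, averaged 14.3 ± 3.99 FPKM in hunting workers and 15 ± 2.71 FPKM in workers of day 20 (adjusted p = 0.827).

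Cyp4aa1 (LOC105190372), a cytochrome P450, was expressed at a low level and stood at 0.0509 to 0.27 FPKM in hunting workers with a median of 0.157. The workers of day 20 had 0.772, 0.691, 1.03 and 0.616 FPKM, more than any hunting worker. The log2 difference was -0.93 (SE 0.16, adjusted p = 0.00042). At such levels the pseudocount of 0.5 sets the size, which was -1.74 with a pseudocount of 0.1, -0.60 with 1, -1.75 in TPM and -2.26 in voom, all past the threshold. Workers of day 10 had 1.41 to 1.98 FPKM. The enzyme gene Fa2h (LOC105188591), a fatty acid 2-hydroxylase, averaged 6.17 ± 1.03 FPKM in hunting workers and 10.3 ± 1.47 FPKM in workers of day 20 (log2 difference -0.70, adjusted p = 0.00159). Tango2 (LOC105185780), found in a Drosophila screen for secretion, averaged 4.1 ± 0.523 FPKM in hunting workers and 7.33 ± 0.998 FPKM in workers of day 20 (log2 difference -0.77, adjusted p = 0.00112). Sirt4 (LOC105184671), a mitochondrial sirtuin, averaged 2.85 ± 0.35 FPKM in hunting workers and 4.7 ± 0.498 FPKM in workers of day 20 (log2 difference -0.63, adjusted p = 0.00318). In all 4 genes every hunting worker was below every worker of day 20.

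Of the other downward genes without overlap, Aptx, the DNA repair enzyme aprataxin, averaged 1.63 ± 0.402 FPKM in hunting workers and 3.13 ± 0.242 FPKM in workers of day 20 (log2 difference -0.79, adjusted p = 0.0094). The acyltransferase rasp, which in Drosophila modifies Hedgehog, averaged 0.954 ± 0.31 FPKM in hunting workers and 2.01 ± 0.0909 FPKM in workers of day 20 (-0.82, adjusted p = 0.00112). Dim1 averaged 3.78 ± 0.771 FPKM in hunting workers and 6.68 ± 0.586 FPKM in workers of day 20 (-0.76, adjusted p = 0.000685). Saysd1 averaged 1.62 ± 0.253 FPKM in hunting workers and 2.9 ± 0.287 FPKM in workers of day 20 (-0.69, adjusted p = 0.000685). All 4 passed when any 1 library was left out, and Aptx did not pass with run 1 only (-0.72, adjusted p = 0.0723). BORCS7, part of a complex that positions lysosomes, averaged 9.21 ± 1.48 FPKM in hunting workers and 15.2 ± 2.59 FPKM in workers of day 20 (-0.69, adjusted p = 0.00782) and was at the threshold without day 20 worker 1 (adjusted p = 0.0508). Pvf1, a growth factor of the PDGF and VEGF type, averaged 36.9 ± 8.17 FPKM in hunting workers and 64.1 ± 8.71 FPKM in workers of day 20 (-0.81, adjusted p = 0.0431). It was lost without any 1 day 20 worker and without hunting worker 1, 2, 4, 6 or 8 (adjusted p up to 0.144).

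Lists of neuronal signalling held few calls, at shares of 7.69% for neuropeptide genes, 0% for their receptors and 5.88% for biogenic amine genes. The share over all genes was 9.81%, and no list was tested against it. Of 13 neuropeptide genes, Ms (LOC105188963), which encodes myosuppressin, passed. It ranged from 28.6 to 54.1 FPKM with a median of 36.7 in hunting workers, against 22, 24.3, 24.1 and 27.9 FPKM in workers of day 20, without overlap. Its log2 difference was 0.60 (SE 0.17, adjusted p = 0.0234), and it did not pass without day 20 worker 1 (adjusted p = 0.0899) or 3 (0.0674). None of 8 neuropeptide receptors passed. Of 17 genes of biogenic amines, the serotonin receptor 5-HT2A (LOC105189275) passed, at 10.2 ± 1.01 FPKM in hunting workers and 7.47 ± 1.37 FPKM in workers of day 20 (log2 difference 0.43, adjusted p = 0.0233), but not without day 20 worker 1 (0.30, adjusted p = 0.168). The tyrosine hydroxylase gene ple, the entry to dopamine synthesis, averaged 6.83 ± 0.631 FPKM in hunting workers and 7.12 ± 1.19 FPKM in workers of day 20 (adjusted p = 0.942), and the vesicular transporter gene Vmat averaged 85.8 ± 22 FPKM in hunting workers and 105 ± 17.7 FPKM in workers of day 20 (adjusted p = 0.344).

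Syt4 (LOC105183540), a synaptotagmin of regulated vesicle release, was the 1 of 22 synaptic genes that passed (4.55%, beside 9.81% of all genes). It stood at 78.8 to 105 FPKM in hunting workers with a median of 85.5, and at 61.0, 69.7, 64.6 and 58.3 FPKM in workers of day 20. All 9 hunting workers were above all workers of day 20, and the log2 difference was 0.48 (SE 0.11, adjusted p = 0.00396). The clock gene cwo (LOC105187138), a transcriptional repressor of the Drosophila circadian clock, had 7.41, 9.15 and 11.9 FPKM as lowest, median and highest of the hunting workers, and 6.44, 7.26, 6.2 and 5.72 FPKM in workers of day 20. It was higher in hunting workers by 0.54 (log2, SE 0.11, adjusted p = 0.00159), without overlap. The other 5 of the 6 tested clock genes did not pass, among them per, at 6.75 ± 2.35 FPKM in hunting workers and 5.93 ± 0.996 FPKM in workers of day 20 (adjusted p = 0.805). The time of day of collection was not part of the labels. The learning genes held 1 call among 15, Pka-R1, a regulatory subunit of protein kinase A, at 33.3 ± 4.22 FPKM in hunting workers and 26.4 ± 5.21 FPKM in workers of day 20 (log2 difference 0.34, adjusted p = 0.0439). It did not pass without hunting worker 1, 2, 4, 6 or 7 or day 20 worker 1 or 3 (adjusted p up to 0.293, with 0.20 without day 20 worker 1), nor without hunting workers 2, 3 and 7 together (0.27, 0.0721). The gene for, which encodes the protein kinase tied to foraging in Drosophila and to task in social insects, averaged 7.39 ± 0.973 FPKM in hunting workers and 6.86 ± 1.77 FPKM in workers of day 20 (adjusted p = 0.64). Of 5 genes induced by neuronal activity, kay, the Drosophila Fos gene, was higher at 6.88 ± 0.373 FPKM in hunting workers, against 5.41 ± 0.666 FPKM in workers of day 20 (log2 difference 0.33, adjusted p = 0.0235), but not without day 20 worker 1 (0.24, adjusted p = 0.15). None of 24 axon guidance genes passed. Shares called were 16.7% of clock genes, 6.67% of learning genes and 20.0% of activity genes, beside 9.81% of all genes.

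Genes of protein synthesis and respiration had negative medians. Shares called were 0% of cytosolic ribosomal, 2.86% of mitochondrial ribosomal and 5.77% of oxidative phosphorylation genes, beside 9.81% of all genes. None of the 54 cytosolic ribosomal protein genes passed, and their median log2 difference was -0.30, beside 0.01 over all genes. Of 70 mitochondrial ribosomal protein genes 2 were lower and none higher (median -0.19), and of 52 oxidative phosphorylation genes 1 was lower and 2 higher (median -0.25). With run 1 alone the 3 medians were -0.09, -0.07 and -0.11, and with run 4 alone -0.47, -0.30 and -0.38. They depended on hunting workers 2, 3 and 7. Without these libraries, where 1309 of 9986 genes were called lower and 1477 higher, the medians were -0.59, -0.38 and -0.50, with 33, 26 and 35 members called lower. With the trend of each library on gene length removed they were -0.19, -0.12 and -0.19, with 0, 1 and 1 members called lower. The summed cytosolic ribosomal level was 7214, 10372 and 8717 FPKM in hunting workers 2, 3 and 7 and 3514 to 5673 FPKM in the other 6, against 9668, 5421, 7905 and 6007 FPKM in workers of day 20, so that the groups overlapped. The cytosolic median was -0.15 without day 20 worker 1 and -0.43 without day 20 worker 2.

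The mitochondrial calls did not share 1 direction. ND-75 (LOC105191934), a core subunit of complex I, was higher, at 92.6 ± 7.45 FPKM in hunting workers and 65.6 ± 11 FPKM in workers of day 20 without overlap (log2 difference 0.50, adjusted p = 0.0265). SdhA, a subunit of succinate dehydrogenase, was higher by 0.35 (adjusted p = 0.0307), and Nc73EF, the 2-oxoglutarate dehydrogenase of the citrate cycle, by 0.58 (adjusted p = 0.0223), at 113 ± 15.3 FPKM in hunting workers and 76.2 ± 15.8 FPKM in workers of day 20. ATPsyndelta, a subunit of ATP synthase, was lower by the log2 difference of -0.48 (adjusted p = 0.0278), and so were mRpL23 (-0.57, 0.0124) and mRpS25 (-0.51, 0.0445) of the mitochondrial ribosome. All 6 were lost without day 20 worker 1, at adjusted p of 0.146 for ND-75, 0.0712 for SdhA, 0.148 for Nc73EF, 0.0983 for ATPsyndelta, 0.0949 for mRpL23 and 0.139 for mRpS25. ND-75 was also lost without day 20 worker 2 (0.0544), SdhA without day 20 worker 3 (0.12) or 4 (0.117) or hunting worker 1 (0.0531), 4 (0.0525) or 6 (0.0539), and ATPsyndelta without day 20 worker 3 (0.0958) or 4 (0.0636) or hunting worker 4 (0.0508). mRpS25 was lost without each of the other 3 workers of day 20 and 6 of the hunting workers (1, 4, 5, 6, 8 and 9).

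Chromatin regulators held 4 calls among 24 tested, 16.7% beside 9.81% of all genes, with a median of 0.16. HDAC3 (LOC105181670), a histone deacetylase, averaged 7.57 ± 1.01 FPKM in hunting workers and 5.54 ± 1.07 FPKM in workers of day 20, with 7 of 9 hunting workers above all workers of day 20 (log2 difference 0.43, adjusted p = 0.0024). It passed without any 1 library. Iswi (LOC105192586), the motor of several chromatin remodelling complexes, averaged 13.4 ± 3.05 FPKM in hunting workers and 8.33 ± 0.595 FPKM in workers of day 20 (log2 difference 0.62, adjusted p = 0.0351), but not without day 20 worker 1, 3 or 4 or hunting worker 1, 4, 6 or 9 (adjusted p up to 0.105). Set1, a histone methyltransferase named outside the rule after its values were seen, averaged 14.3 ± 1.39 FPKM in hunting workers and 11.6 ± 1.46 FPKM in workers of day 20 (0.29, adjusted p = 0.0276). It did not pass without day 20 worker 3 (0.0764) or 4 (0.21, adjusted p = 0.165) or hunting worker 1 (0.0512). The fourth was Sirt4, lower as given above, a mitochondrial enzyme by its usual location, without which the list had 3 calls among 23, or 13%. Without hunting workers 2, 3 and 7 the list had 9 members higher and 1 lower, where 1477 of 9986 genes were higher and 1309 lower. With the length trend removed it had 2 higher and 1 lower, where 572 of 9986 genes were higher and 388 lower.

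RNA processing and repair genes gave a few small calls upward, at shares near the 9.81% of all genes. Of 24 splicing and RNA binding genes 3 (12.5%) were higher, namely Prp6 (log2 difference 0.41, adjusted p = 0.0379) and Prp3 (0.30, 0.0285), proteins of the spliceosome, and sqd (0.27, 0.0429), an RNA binding protein. Of 14 DNA repair genes 2 (14.3%) were higher, mus201 (0.43, 0.0157) and Xpd (0.26, 0.0304), both of nucleotide excision repair. Each of these 5 was lost without day 20 worker 1, at adjusted p of 0.153 for Prp6, 0.121 for Prp3, 0.135 for sqd, 0.0503 for mus201 and 0.268 for Xpd, whose difference was then 0.14. The first 4 were also lost without other libraries, mus201 without day 20 worker 3 (0.0924), Prp6 without day 20 workers 2 or 3 or 5 of the hunting workers (1, 4, 5, 6 and 9), Prp3 without day 20 workers 2 or 4 or hunting worker 4, and sqd without day 20 workers 3 or 4 or any 1 hunting worker but 2 and 3. With the length trend removed the difference of sqd was 0.07 (adjusted p = 0.661).

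Protein turnover and stress lists held 1 or 2 calls each, at 2.86% of proteasome and ubiquitin genes and 5.88% of autophagy genes. Shares were 7.69% for chaperone, 9.09% for antioxidant, 14.3% for immune and 4.55% for cell cycle genes, beside 9.81% of all genes. The polyubiquitin gene Ubi-p63E was higher, at 903 ± 147 FPKM in hunting workers and 633 ± 131 FPKM in workers of day 20 (log2 difference 0.52, adjusted p = 0.0339), as the 1 call among 35 genes of proteasome and ubiquitin. Its difference was 0.97 with quantile normalization (adjusted p = 0.00039) and 0.32 with array weights (0.0312), and it did not pass with no filter (0.111), with run 4 only (0.123) or in the fit of the 2 groups alone (0.0792). In the autophagy list of 34, the kinase gene Atg1 was higher (0.38, adjusted p = 0.0396) and the protease gene Atg4a lower (-0.39, adjusted p = 0.0231). Pdi, which forms disulphide bonds in the endoplasmic reticulum, was higher by 0.27 (adjusted p = 0.0242), 1 of 13 chaperone genes, and Keap1, the sensor of oxidative stress, by 0.25 (adjusted p = 0.0449), 1 of 11 antioxidant genes. Of 7 immune genes cact, the inhibitor of Toll signalling in Drosophila, was higher by 0.35 (adjusted p = 0.0484), and the summed level of the list was 42.6 to 48.2 FPKM in hunting workers and 35.9 to 41.7 FPKM in workers of day 20. The origin recognition gene Orc1 was lower by the log2 difference of -0.33 (adjusted p = 0.0188), 1 of 22 cell cycle genes. None of these 7 passed under every omission of 1 library. Without day 20 worker 1 the adjusted p was 0.186 for Ubi-p63E, 0.129 for Atg1, 0.108 for Atg4a, 0.0919 for Pdi, 0.234 for Keap1 and 0.161 for cact. Orc1 was lost without day 20 worker 3 (0.0835) or 4 (0.0563). Other single libraries ended the calls of Ubi-p63E (day 20 workers 2 and 4, hunting worker 4, and hunting workers 2, 3 and 7 together), Atg1 (day 20 workers 3 and 4, 6 hunting workers), Atg4a (day 20 worker 3), Pdi (day 20 workers 2 and 4), Keap1 (day 20 workers 3 and 4, 7 hunting workers) and cact (the other 3 workers of day 20, 7 hunting workers).

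Hunting workers 2, 3 and 7 also bear on the counts of the other lists. Without them, where 1477 of 9986 genes were higher and 1309 lower, the proteasome and ubiquitin list had 2 members higher and 9 lower, and its median moved to -0.21 from -0.05. The autophagy list then had 5 higher and 5 lower, the antioxidant list 3 and 4, the neuropeptide list 2 and 3, and the splicing list 6 and 1. DNA repair genes had 4 higher and none lower, biogenic amine genes 3 and 0, and synaptic and axon guidance genes 2 and 0 each. Immune genes had 2 higher and 1 lower, cuticle genes 0 and 2, and ion channel, glycolysis and cell cycle genes 1 and 1 each. Neuropeptide receptor, retina, glial and fat body genes had 1 higher and 0 lower each, and learning genes 0. With the length trend removed, 2 neuropeptide receptors, 2 ion channels and 1 axon guidance gene were called lower, and 2 synaptic genes, 2 proteasome and ubiquitin genes and 1 cell cycle gene higher.

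**Figure D4:**
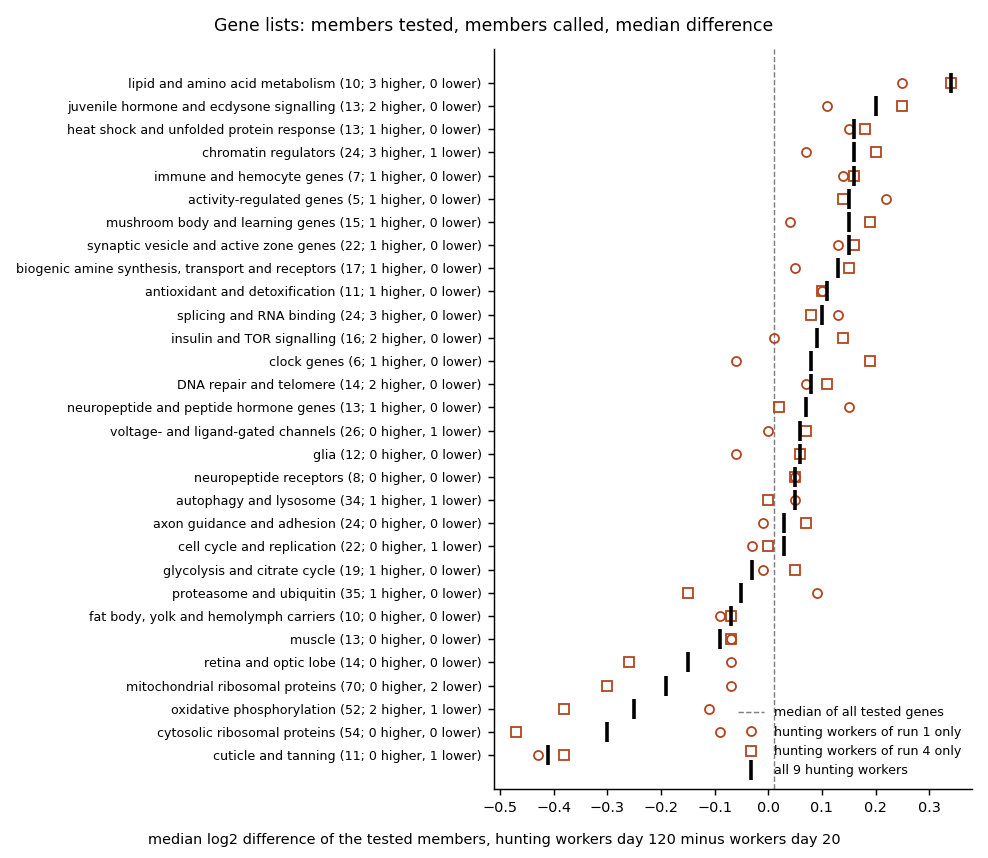
Median log2 difference, hunting workers of day 120 minus workers of day 20, over the tested members of each gene list with at least 5 of them (bars), and the same with hunting workers of run 1 only (circles) or run 4 only (squares). Labels give the members tested and called, and the dashed line is the median of all genes, 0.01. Lipid and amino acid genes reach 0.34, while cytosolic ribosomal genes lie at -0.30, with -0.09 for run 1 and -0.47 for run 4.

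Markers of tissues next to the central brain varied by library. Obp10 (LOC105188059), an odorant binding protein gene and the most abundant antennal marker, was lower in hunting workers at 390.5 ± 170.2 FPKM, against 639 ± 106 FPKM in workers of day 20 (log2 difference -0.80, adjusted p = 0.0362). It was the 1 call of 4 antennal genes tested (25.0%, beside 9.81% of all genes). Hunting workers 3 and 7, at 656 and 682 FPKM, lay among the workers of day 20 (543 to 748). Without hunting workers 2, 3 and 7 its difference was -1.15 (adjusted p = 0.000848), and it was lost without day 20 worker 1 (0.114), 3 (0.127) or 4 (0.0587) and without hunting worker 1, 4, 5, 6, 8 or 9 (up to 0.0657). Muscle genes summed to 70 to 137 FPKM in hunting workers and 66.8 to 109 FPKM in workers of day 20, with 0 of 13 called. Fat body and hemolymph genes summed to 1978 to 3993 FPKM in hunting workers and 1864 to 3167 FPKM in workers of day 20, led by Tsf1, with 0 of 10 called. No glial gene of 12 was called. The part of such tissue in the results was not tested.

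By kind of gene, long noncoding RNAs and pseudogenes were called mostly downward. Of 546 tested long noncoding RNAs 9 (1.65%) were higher and 51 (9.34%) lower in hunting workers, and of 124 pseudogenes 3 (2.42%) were higher and 24 (19.4%) lower. Of 9310 protein coding genes 513 (5.51%) were higher and 380 (4.08%) lower. The kinds were taken from the reference table, and reads shared with near-identical genes leave the values of pseudogenes uncertain. Slopes on gene length differed between most hunting workers and the workers of day 20. The part of gene length and of expression level in these counts was not tested.

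Among genes with no name in the reference, chosen after their values were seen, LOC105188429 had the firmest rise. It stood at 1.15, 2.86 and 5.44 FPKM as lowest, median and highest of the hunting workers, and at 0.789, 0.273, 0.451 and 0.354 FPKM in workers of day 20. The groups did not overlap, and the log2 difference of 1.81 (SE 0.27, adjusted p = 7.45e-05) passed in each of the 27 alternative analyses it entered. LOC105187761 stood at 1.52 to 26.7 FPKM in hunting workers with a median of 3.88, against 0.318, 1.04, 0.522 and 0.673 FPKM in workers of day 20 (log2 difference 2.26, SE 0.48, adjusted p = 0.00295). LOC105182112 was listed at 0 in all 4 workers of day 20 and in all 4 workers of day 10. Hunting workers had 0.11 to 58.3 FPKM with a median of 0.537, and 3 of them, replicates 2, 3 and 9, had 58.3, 29.3 and 18.3 FPKM (adjusted p = 0.025). That call was lost without day 20 worker 1 (0.0679), 3 (0.0676) or 4 (0.0639), where the remaining libraries of the group were still at 0. It was also lost with run 4 only (log2 difference 1.61, adjusted p = 0.0607, against 4.07 with run 1 only), in the fit of the 2 groups alone (0.161) and in voom (0.126).

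Calls of named genes also depended on the scaling and on the run. In TPM 27 of 62 were lost (adjusted p 0.0515 to 0.198), those of Gp150, CDase, Pvf1, Tor, Tsc1, 5-HT2A, Pka-R1, kay, cact, mRpL23, mRpS25, ND-75, ATPsyndelta, SdhA, Nc73EF, bgm, Keap1, Pdi, Atg4a, Atg1, Orc1, Iswi, mus201, Xpd, Prp6, Prp3 and sqd. With hunting workers of run 1 only 32 were lost (adjusted p 0.0537 to 0.388), those of Gp150, Ms, Zw, CDase, ort, snsl, Pvf1, Aptx, BORCS7, Tor, Tsc1, 5-HT2A, Pka-R1, kay, Obp10, cact, mRpL23, mRpS25, ND-75, ATPsyndelta, SdhA, Nc73EF, bgm, Keap1, Pdi, Atg4a, Atg1, Iswi, mus201, Xpd, Prp6 and sqd. With hunting workers of run 4 only 20 were lost (adjusted p 0.0516 to 0.142), those of Myc, Gp150, Zw, CDase, Pvf1, E75, 5-HT2A, Pka-R1, kay, cact, ND-75, Nc73EF, Hmgs, Keap1, Ubi-p63E, Orc1, Xpd, Prp6, Prp3 and LOC105182112. The fit of the 2 groups alone lost 16 (adjusted p 0.0506 to 0.161), those of Miox, Pka-R1, Obp10, mRpS25, ATPsyndelta, SdhA, bgm, Hmgs, Keap1, Pdi, Ubi-p63E, Atg1, HDAC3, Xpd, sqd and LOC105182112. Quantile normalization lost 9 (adjusted p 0.0503 to 0.164), those of Pka-R1, Obp10, cact, ND-75, Nc73EF, Pdi, Atg4a, Atg1 and sqd. Without a filter on low values 7 were lost (adjusted p 0.0563 to 0.111), those of Gp150, CDase, Pvf1, Obp10, cact, mRpS25 and Ubi-p63E. With the length trend removed 7 were lost (adjusted p 0.0531 to 0.661), those of Myc, Pka-R1, kay, mRpS25, Keap1, Prp6 and sqd. Array weights ended the calls of CDase (0.37, adjusted p = 0.136) and Pka-R1 (0.18, 0.0666), voom those of Pvf1 (0.0658) and LOC105182112, and a run term that of cact (0.0508). Weakly expressed genes changed size with the method. Kr-h1 was 4.33, Miox 2.82, snsl -2.55 and bgm 0.86 in voom, and Miox was 2.38 and bgm 0.84 in TPM. Miox was 2.28 with a pseudocount of 0.1. Obp10 was -0.49 with quantile normalization, and Xpd was 0.16 with array weights.

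Gamergates offer the same age step in the other caste and nearly the same runs, with 1 library of day 120 in run 1 and 5 in run 4, and all 5 libraries of day 20 in run 5. Between gamergates of day 120 and of day 20, 4505 of the 9986 genes (45.1%) passed, 2271 higher and 2234 lower. In TPM the counts were 2627 higher and 1106 lower, so 70.4% were higher against 50.4% in the FPKM values. Of the 980 genes called in workers 724 were also called in gamergates, 721 of them in the same direction, which is 73.6% of the worker calls and 16% of the gamergate calls. These comparisons share no library, but they share the runs and come from the same fit of all 37 libraries, with a common spread. Slopes on gene length also differed by day in gamergates, at -0.153 to -0.003 for day 20 and 0.055 to 0.137 for day 120. With the length trend removed, 3801 genes passed between gamergates. The part of this trend in the overlap of the calls was not tested. A run effect common to both castes is removed in part when the age difference of gamergates is subtracted from that of workers. At day 120, run 1 holds 4 of 9 hunting workers but 1 of 6 gamergates, so a difference between runs 1 and 4 does not fully cancel. No gene of 9986 (0%) passed for that difference of differences in limma. The lowest adjusted p was 0.309, with 1124 genes at an unadjusted p under 0.05 and 98 of them among the 980. Voom on recovered reads also gave 0, with 1045 unadjusted, and array weights gave 1. Leaving out day 20 worker 4 gave 1 gene, and leaving out gamergate 1 or 3 of day 120 gave 3.

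Some named genes had like differences in both castes, and others did not. For Dab the log2 difference was 0.71 in workers and 0.72 in gamergates, for black 0.82 and 0.75, for Cap-D2 0.60 and 0.69, for ort -1.57 and -1.79, for Tango2 -0.77 and -0.78, and for Sirt4 -0.63 in both. Unlike sizes were those of Pvf1 (-0.81 in workers, -0.23 in gamergates), FucTA (0.60, 0.20), rasp (-0.82, -0.38) and Tor (0.52, 0.91). Kr-h1 also differed in size. In gamergates it had 0.256 to 1.64 FPKM at day 120 with a median of 0.428, and 0.0479 to 3.38 FPKM at day 20 with a median of 0.16, a log2 difference of 0.19 that did not pass (adjusted p = 0.752). The worker difference exceeded the gamergate difference by 2.39 (SE 0.62), at an unadjusted p of 0.000491 and an adjusted p of 0.437 over all genes. Hunting workers 3 and 8, at 1.22 and 1.62 FPKM, lay below the highest gamergate of day 120, and the other 7 lay above it. Vgn had 189 to 3418 FPKM in gamergates of day 120, where hunting workers had 0.277 to 349, and the difference of differences was -4.62 (unadjusted p = 0.00355, adjusted p = 0.441). That of ILP-2 was 0.74 (unadjusted p = 0.0512, adjusted p = 0.441) and that of Crz 1.15 (0.0661, 0.441). LOC105187761 (2.11, unadjusted p = 0.00434), LOC105188429 (1.11, 0.00638), Myc (0.57, 0.0297) and HDAC3 (0.27, 0.037) were larger in workers by the unadjusted test alone, with adjusted p = 0.441 for each.

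**Figure D5:**
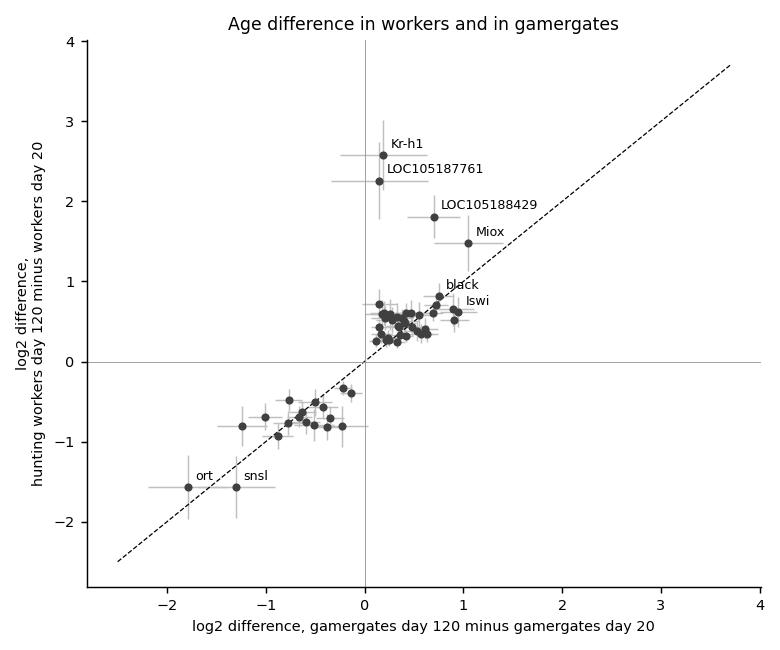
Log2 difference between day 120 and day 20 in workers (hunting workers minus workers of day 20, vertical) against that in gamergates (horizontal), with bars of 1 SE, for 57 named called genes. The dashed line marks equal differences. For 38 of the 57 genes the difference is larger in workers than in gamergates, and Kr-h1 at 2.58 and 0.19 and LOC105187761 at 2.26 and 0.15 lie farthest above it. The genes were chosen for their difference in workers, apd-3l and 3 unnamed genes lie beyond the axes, and LOC105182112, listed at 0 in workers of day 20, is not drawn.

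Between the runs of the hunting workers, run 4 minus run 1, no gene of 9986 (0%) passed in limma. The lowest adjusted p was 0.157, and 634 genes had an unadjusted p under 0.05. The count was 1, 5, 9 and 3 without hunting worker 1, 4, 7 or 9. Over the 980 called genes the median size of the run difference was 0.10, against 0.46 for the difference between hunting workers and workers of day 20, and 2 genes had a larger run difference than group difference. These genes were chosen for their group difference. Over all 9986 genes the median sizes were 0.15 for the run difference and 0.19 for the group difference, and the run difference was the larger for 4231 genes (42.4%). Run 5 holds no hunting worker, so its distance from runs 1 and 4 could not be measured this way.

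Workers of day 10, from run 2, show where the level stood earlier. Of the 37 named genes with a symbol that were higher in hunting workers, the median of day 10 lay within the range of hunting workers only for 19, and within the range of the workers of day 20 only for 14. The first set held Dab, Myc, Nuak1, FucTA, E75, Syt4, cwo and HDAC3, and the second held Kr-h1, Miox, black, Ms, Cap-D2 and ND-75. For Dab, workers had 33.4 to 43.3 FPKM at day 10, 20.5 to 29.1 FPKM at day 20 and 31.2 to 49.3 FPKM as hunting workers at day 120. For Syt4 they had 86.4 to 99.2 FPKM at day 10, 58.3 to 69.7 FPKM at day 20 and 78.8 to 105 FPKM at day 120. In Dab and Syt4 day 20 was the lowest of the 3 days. The named genes were chosen for their difference between hunting workers and the same workers of day 20, which favours extreme values at day 20. The counts by day 10 level have no share over all tested genes beside them. Black, by contrast, had 2.19 to 2.77 FPKM at day 10, 1.86 to 3.03 FPKM at day 20 and 3.93 to 7.36 FPKM at day 120. Of the 19 named genes lower in hunting workers, the day 10 median lay in neither range for 11. For rasp, Dim1, Sirt4, mRpL23 and Orc1 it was below both, as with rasp at 0.171 to 0.489 FPKM at day 10, 1.94 to 2.14 FPKM at day 20 and 0.446 to 1.3 FPKM at day 120. For ort, Cyp4aa1, apd-3l, Pvf1, Obp10 and ATPsyndelta it was above both. Each of the 3 days was sequenced in runs of its own, so day and run cannot be told apart.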

How the data were processed

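Libraries were made from polyA RNA of dissected central brains (600 ng of total RNA, strand-specific dUTP method), per the labels' protocols. The authors deposited FPKM per gene, and bcl2fastq, STAR and featureCounts are named in the submitters' processing notes, while the genome build is not given in the sources used here. FPKM steps gave whole reads within 0.1 read for 13444 of the 13445 genes above 0 in any library, which yields the depths. Genes with FPKM of at least 1 in 4 or more of 37 libraries were tested (9986 of 14001) with limma 3.58.1 in R 4.3.3 on log2(FPKM + 0.5), with trended eBayes, 7 group means, no run term, two-sided tests, Benjamini-Hochberg adjustment over all tested genes and a threshold of 0.05. Adjusted p-values come from that model, except where an alternative is named beside them. Symbols come from RefSeq (Hsal_v8.6; 13989 IDs matched, 4117 with a symbol), and roles of genes with fly names are background from Drosophila.

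Genes were named by rule: per direction up to 12 with a symbol, the largest called differences with groups that did not overlap and a mean of at least 2 FPKM in the higher group; up to 3 called members per list; and a set of hormone, clock and amine genes named whatever their result. The members, the 33 gene lists and the rule were chosen with earlier results of these data known. One gene of the lipid and amino acid list is not reported here and was left out of its counts. Alternatives were other pseudocounts (0.1, 1), filters (none, FPKM of at least 5), TPM, quantile normalization, array weights, limma-voom on recovered reads, a run term, single runs, a fit of the 13 libraries alone, a replicate block and each library left out. Leaving out hunting workers 2, 3 and 7, and removing each library's linear trend on gene length, were chosen after seeing the data. Reads shared by near-identical genes, as in cuticle, odorant binding and P450 families, leave their levels uncertain. The model was tested on simulated data.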

Additional observations from a re-analysis of the deposited data

Results flagged for a closer look

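In 10 of 148 groups, 2 for each of 74 named genes, 1 library lay far from the others of its group by Dixon's test at the 95% level, which chance gives in about 1 in 20 groups. Among hunting workers, Miox was 10.9 FPKM in replicate 4 and 0.511 to 2.09 in the others, Keap1 was 8.31 FPKM in replicate 3 and 9.52 to 10.8 in the others, and ple was 5.41 FPKM in replicate 8 and 6.52 to 7.78 in the others. Among workers of day 20, replicate 1 was low for 5-HT2A (5.43 FPKM, others 7.93 to 8.36), kay (4.42, others 5.69 to 5.83) and Hmgs (5.63, others 6.69 to 6.9). Replicate 2 was low for Dim1 (5.81 FPKM, others 6.89 to 7.07) and ILP-2 (6.05, others 8.43 to 8.9), replicate 3 was low for per (4.43, others 6.37 to 6.48), and replicate 4 was high for rasp (2.14, others 1.94 to 1.97).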

How the results depend on the processing

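The 980 calls between hunting workers and workers of day 20 became 417 in TPM, 519 with hunting workers of run 1 only, 4337 with array weights, 2786 without hunting workers 2, 3 and 7, and 477 to 1645 when 1 library was left out. The split of higher against lower calls was 525 to 455, and it was 269 to 148 in TPM and 321 to 435 in a fit of the 13 libraries alone (756 calls). Replicate numbers were not used as pairs in the reported model. The correlations of the deviations of same-numbered libraries were 0.067, -0.261, 0.437 and -0.005. Without those of differently numbered libraries beside them, they cannot decide whether the numbers pair the samples. A replicate block left 14 calls, 4 higher and 10 lower. Hunting workers 5 to 9 have no worker of day 20 with their number. The block therefore compares only hunting workers 1 to 4, all of run 1, with the 4 workers of day 20. The difference of differences gave 1 call with array weights and 0 to 3 with 1 library left out. The run difference among hunting workers gave 1 call without a filter, 2 without hunting workers 2, 3 and 7, 1 with the length trend removed and 0 to 9 with 1 library left out. Under the other alternatives the total of calls stayed within 1.5 times of 980 and was 0 for these last 2 comparisons. Between gamergates, TPM gave 2627 higher and 1106 lower, against 2271 and 2234. The 82 worker calls past 2-fold became 48 with FPKM of at least 5, 124 in voom, 124 without hunting workers 2, 3 and 7, and 14 with the block.

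Of 62 named calls, 2 held under all alternatives, 18 were lost only with the replicate block, and 25 held without each library in turn. The replicate block ended 59, and 32 were lost without day 20 worker 1, 32 with run 1 only, 27 in TPM and 7 with the length trend removed. No named call changed sign. Uncalled genes that did were jhamt, at -0.15 with a pseudocount of 0.1, -0.13 in TPM, -0.31 with run 4 only, -0.45 with array weights, -1.09 in voom, -0.49 without hunting workers 2, 3 and 7 and -0.38 to 0.52 without 1 library, per at 0.00 with run 1 only and with the replicate block, ple at 0.02 in TPM, 0.01 with run 1 only and with the block and -0.14 to 0.03 without 1 library (0.03 without day 20 worker 4), and Hdc at 0.03 with run 1 only and with the block. The cause was not tested. Depth, 12.72 M to 15.09 M reads in workers of day 20, limits genes at under 1 FPKM there, such as Kr-h1 and Cyp4aa1.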
